A study of Homo sapiens with 8 samples.

Results

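The interferon-stimulated genes described here were 42 named genes whose mRNAs rise when cells sense type I, II or III interferon, and they were taken from the table of HT29 mRNA-seq values by gene symbol. Of these, 41 had a row among the 38148 genes of the table, and OAS1 was not analysed here. An average over the 8 libraries of at least 4.58 on the authors' log2 scale, which is 1 RPM (reads scaled to the size of the largest library), was reached by 28 of the 41 genes and by 14219 genes in all. The other 13 were too low for the main test. IFIT2 (average 4.57) and DDX60 (4.55) lay just outside this limit, and IFIT1 (4.81) and USP18 (5.11) lay just inside it.

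HT29 cells derive from a human colorectal tumour and carry the BRAF V600E mutation, which keeps the MEK and ERK kinases active. Cells were untreated or grown with the MEK inhibitor selumetinib at 1 μM for 24 h, then fixed with glyoxal, stained for the G2 cyclin CCNB1 and sorted by that stain. Each of the 4 combinations of treatment (untreated or selumetinib) and fraction (CCNB1-negative or CCNB1-positive) had 2 libraries. No interferon was added to any group, and all groups were fixed, stained and sorted alike. The comparisons asked how the mRNAs of CCNB1-negative and CCNB1-positive cells differed with and without the drug.

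In all 8 libraries the sample title contradicts the short description on treatment and on fraction. The growth-medium label, which names selumetinib where it was added, matches the title. The groups follow the descriptions, which are also the column names of the table. Under the titles each selumetinib difference below would change sign and move to the other fraction, and each fraction difference would change sign and move to the other treatment. CCNB1 mRNA itself stood at 591 and 711 RPM in the libraries described as untreated CCNB1-positive against 135 and 172 RPM in untreated CCNB1-negative, and at 290 and 248 RPM against 10.1 and 6.24 RPM under selumetinib. Of 11 genes known to report MEK activity, 9 fell with selumetinib in each fraction, ETV4 by 3.10 ± 0.31 (log2 ± SE) among CCNB1-negative and 2.34 ± 0.31 among CCNB1-positive cells (limma adjusted p = 8.1e-07 and 2.2e-05), whereas SPRED2 was called higher in CCNB1-negative cells. EPHA4 was below the limit in both untreated groups and was tested through its selumetinib libraries, so its values are given without a test: 0.366 to 0.544 RPM untreated and 2.45 to 11.3 RPM with selumetinib. The 8 libraries held 12696860 to 23916160 reads on genes. All 7 epithelial markers of a list passed the limit, of which 2 rose and 3 fell in CCNB1-negative cells and 2 rose and 1 fell in CCNB1-positive cells. EPCAM fell by 1.34 ± 0.18 and 0.83 ± 0.18 (limma adjusted p = 1.2e-05 and 0.0011), KRT8 fell by 1.22 ± 0.30 in CCNB1-negative cells (adjusted p = 0.0022) and CDX2 rose by 1.14 ± 0.32 in CCNB1-positive cells (adjusted p = 0.0067). Quantile normalization removed the calls of CDX2 (0.09, limma adjusted p = 0.83) and EPCAM (-0.23, adjusted p = 0.23) in CCNB1-positive cells. It kept those of EPCAM (-0.69) and KRT8 (-1.55) in CCNB1-negative cells. Among 10 immune and stromal markers the defining leukocyte genes PTPRC and CD3E had 34 and 3 reads over all libraries. Of the 3 that passed the limit, COL1A1, likewise below the limit in both untreated groups, was read at no more than 5.03 RPM in any library, and LYZ fell by 1.35 ± 0.23 and 0.73 ± 0.23 (adjusted p = 1.2e-04 and 0.013). Without LYZ, read at 309 to 1090 RPM, the other 9 markers summed to 7.64 to 8.92 RPM in untreated CCNB1-negative, 7.23 to 8.25 in untreated CCNB1-positive, 7.45 to 9.45 in selumetinib CCNB1-negative and 10.9 to 16.8 in selumetinib CCNB1-positive cells, where CD68 and COL1A1 made up most of the sum, and the part of these markers in the results was not tested.

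Interferons bind receptors that switch on the kinases JAK1, JAK2 and TYK2, which phosphorylate STAT proteins. STAT2 joins IRF9 in the complex ISGF3, which binds an interferon-stimulated response element (ISRE) in promoters, whereas other STAT dimers bind gamma-activated sites (GAS). The induced proteins sense viral RNA, block viral entry and translation, degrade RNA and carry the signal onward, and in intestinal epithelium this programme is also run at a low level without infection.

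Promoters of 33 of the 41 genes were found in the RefSeq table for GRCh38.p14, each window running from 250 bases before to 50 bases after the start site. The core of the ISRE, GAAANNGAAA on either strand, was present in 23 of the 33 windows (69.7%), against 3.65% of all 27305 promoter windows and 2.72% of those of genes tested. The GAS letters TTCNNNGAA were present in 9 of 33 (27.3%) against 7.88% of all windows. Matches of both kinds overlapped in 4 genes, BST2, EPSTI1, IFI27 and IFITM1. The promoters of IRF7, USP18, OASL, IFITM2, OAS2, IFIT2, MX2 and TRIM22 were not in the table. The 7 stretches that follow show how the element is spaced in genes that rose with selumetinib in one or both fractions (ISG15, IFIT3, IFITM3, IFI6, IFI27 and PARP14) and in SAMD9, which fell in CCNB1-negative cells. None overlaps an annotated exon, each reads 5′ to 3′ on the strand of its gene, and capitals mark every ISRE core, which appears as its reverse complement where it lies on the other strand.
ISG15: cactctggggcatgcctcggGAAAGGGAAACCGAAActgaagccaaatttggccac
IFIT3: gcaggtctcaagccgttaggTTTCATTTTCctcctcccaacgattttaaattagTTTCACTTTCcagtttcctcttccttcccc
IFITM3: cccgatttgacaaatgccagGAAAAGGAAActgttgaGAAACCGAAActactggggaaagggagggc
IFI6: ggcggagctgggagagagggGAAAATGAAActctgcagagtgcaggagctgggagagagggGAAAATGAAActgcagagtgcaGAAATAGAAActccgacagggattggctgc
IFI27: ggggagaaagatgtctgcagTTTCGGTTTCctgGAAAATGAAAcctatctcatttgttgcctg
PARP14: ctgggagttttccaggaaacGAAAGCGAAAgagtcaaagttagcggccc
SAMD9: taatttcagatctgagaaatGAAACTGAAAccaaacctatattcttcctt
They lie at chr1:1013364-1013419 (ISG15, plus strand), chr10:89327821-89327904 (IFIT3, plus), chr11:320866-320932 (IFITM3, minus), chr1:27672256-27672368 (IFI6, minus), chr14:94110608-94110670 (IFI27, plus), chr3:122680790-122680838 (PARP14, plus) and chr7:93118086-93118135 (SAMD9, minus). The stretches of ISG15, IFIT3, IFITM3 and IFI27 lie within the annotated span of the same gene, that of IFIT3 also within LIPA, and outside exons.

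Before treatment the genes spanned a wide range of levels. Per kilobase of exon, the untreated CCNB1-negative libraries held most reads for BST2, the membrane tether that holds budding virions (47.7 and 47.1 RPM per kb), and for ISG15, the ubiquitin-like modifier (32.1 and 35.7 RPM per kb). IRF7, the interferon regulatory factor that amplifies interferon transcription, came next at 11.3 and 9.56 RPM per kb. TRIM21 (7.96 and 6.67) lay just above IFITM2 (6.52 and 5.28), DTX3L and IFI35 overlapped between 4.65 and 5.22, and EIF2AK2 (4.43 and 4.5) lay below both. At the other end HERC6 (0.149 and 0.109), IFIT1 (0.147 and 0.0571) and MX1 (0.0529 and 0.0439) stood lowest among the 28 genes, and HERC6 and IFIT1 overlapped each other. These 3 genes fell below the limit in at least one untreated group and passed it through their selumetinib libraries, so that a difference in them was needed for them to be tested.

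**Figure D1:**
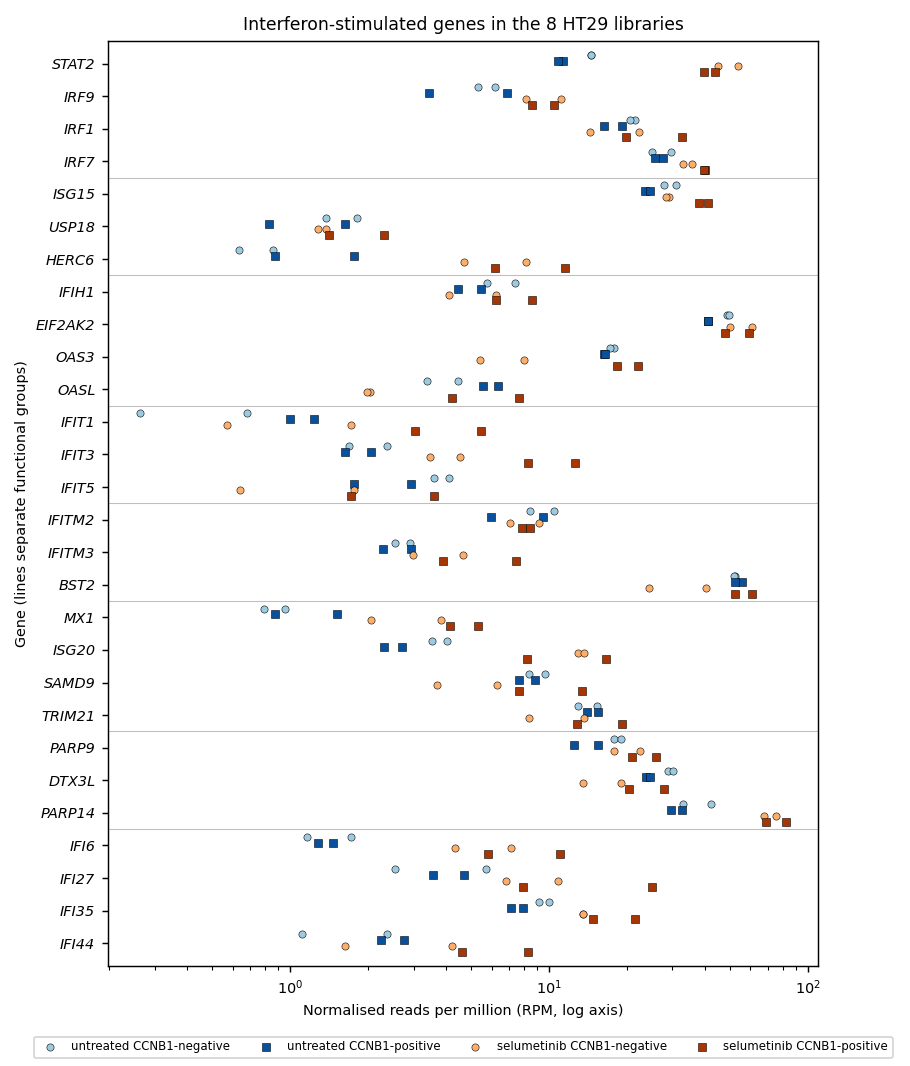
Normalised RPM (log axis) of the 28 interferon-stimulated genes tested, with 1 point per library, 2 libraries in each of 4 groups and lines between functional groups. STAT2 (10.8 to 14.6 RPM untreated, 39.7 to 53.9 RPM with selumetinib), HERC6 and ISG20 separate by treatment in both fractions, whereas the selumetinib CCNB1-negative libraries of OAS3 (5.39 and 8.01 RPM) stand apart from all others. HERC6 passed the limit through its selumetinib libraries.

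With selumetinib, 10 of the 28 genes rose and 6 fell in CCNB1-negative cells, and 16 rose and 0 fell in CCNB1-positive cells (limma, Benjamini-Hochberg adjusted p under 0.05 over all 14219 genes). Among all genes tested, 38.2% rose and 35.8% fell in CCNB1-negative cells, and 38% rose and 27.3% fell in CCNB1-positive cells, so that change with the drug was common. The calls among the 28 genes come to 35.7% higher and 21.4% lower in CCNB1-negative and 57.1% higher in CCNB1-positive cells. Without HERC6, IFIT1 and MX1, which were below the limit in an untreated group, 8 of 25 genes were called higher and 6 lower in CCNB1-negative cells, and 13 of 25 higher in CCNB1-positive cells. The median difference of the 28 genes was 0.25 for CCNB1-negative and 0.73 for CCNB1-positive cells on the log2 scale, beside 0.05 and 0.17 over all genes. Under quantile normalization, which shifted the median of all genes to -0.08 and -0.07, CCNB1-negative cells had 6 genes higher and 10 lower, CCNB1-positive cells had 10 higher and 2 lower, and the medians of the 28 genes stood 0.05 and 0.43 above those of all genes. The shares of all genes called under quantile normalization are not given here. By their calls, 10 genes were higher in both fractions, 6 were higher in CCNB1-positive and not called in CCNB1-negative cells, and 6 were lower in CCNB1-negative and not called in CCNB1-positive cells, while IRF1, USP18, IFIH1, EIF2AK2, IFITM2 and TRIM21 were called in neither. In bulk libraries fewer cells with an mRNA and less of it per cell cannot be told apart.

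**Figure D2:**
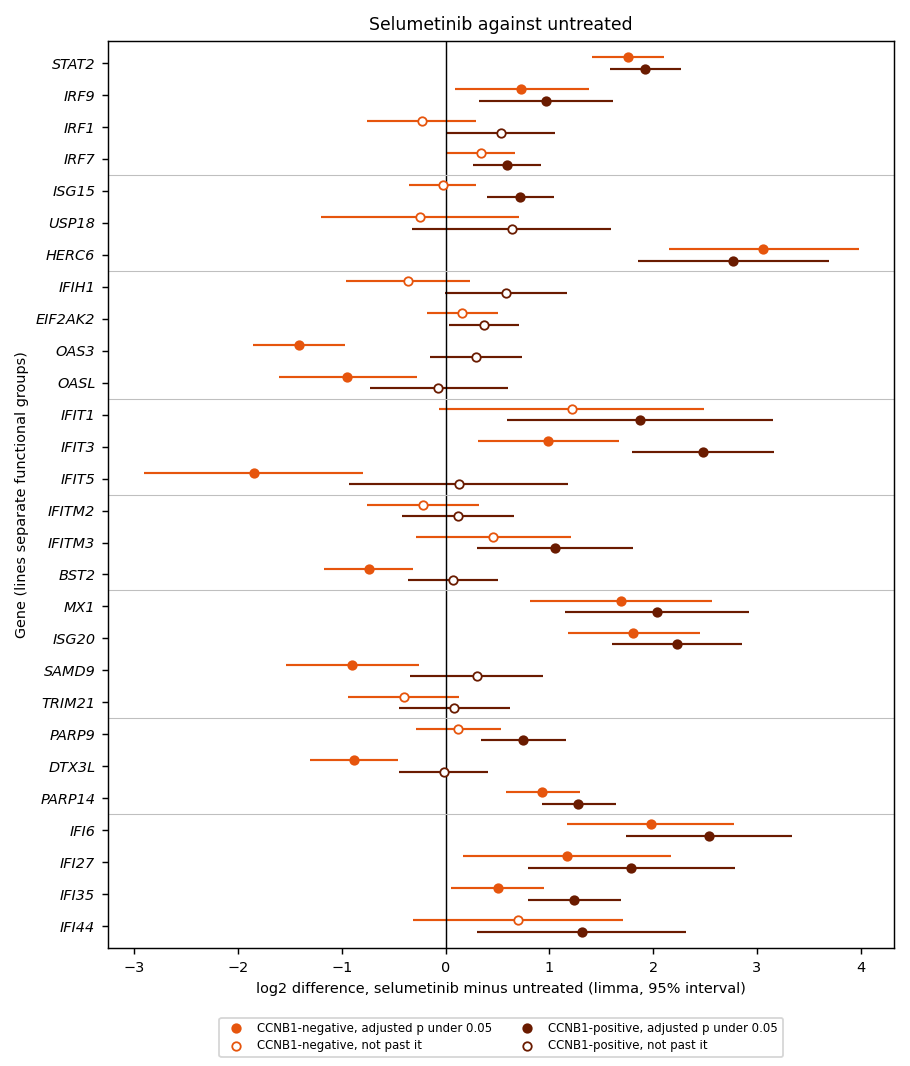
Log2 difference of selumetinib minus untreated for the 28 genes in CCNB1-negative and CCNB1-positive cells, with limma's 95% interval, filled points marking an adjusted p under 0.05 and lines between functional groups. HERC6 (3.06 and 2.77) and STAT2 (1.76 and 1.92) lie far to the right in both fractions, and OAS3, OASL, IFIT5, BST2, SAMD9 and DTX3L are the filled points left of zero, all in CCNB1-negative cells. HERC6, IFIT1 and MX1 passed the limit through their selumetinib libraries.

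Of the 4 signalling genes, STAT2 and IRF9 rose in both fractions and IRF7 in CCNB1-positive cells. STAT2, the ISGF3 subunit that carries its activation domain (chr12:56341597-56360167, minus strand), stood at 14.6 and 14.5 RPM in untreated CCNB1-negative and 53.9 and 45.1 RPM in selumetinib CCNB1-negative cells, and at 11.3 and 10.8 RPM in untreated CCNB1-positive and 44 and 39.7 RPM in selumetinib CCNB1-positive cells. The treated and untreated libraries did not overlap, and the difference was 1.76 ± 0.16 (log2 ± SE, limma adjusted p = 3.5e-07) and 1.92 ± 0.16 (adjusted p = 6.0e-07), or 3.39-fold and 3.79-fold. IRF9, the DNA-binding subunit of ISGF3, rose by 0.73 ± 0.30 (limma adjusted p = 0.04) and 0.97 ± 0.30 (adjusted p = 0.012), although quantile normalization left 0.24 and 0.21 with adjusted p = 0.43 and 0.52, the call in CCNB1-negative cells was lost without either untreated replicate or selumetinib replicate 1, that in CCNB1-positive cells was lost without untreated replicate 2 or selumetinib replicate 1, and exons of other genes on both strands overlap those of IRF9. IRF7 rose in CCNB1-positive cells by 0.59 ± 0.15 (limma adjusted p = 0.0039), with 0.34 ± 0.15 in CCNB1-negative cells (adjusted p = 0.059). There it was called higher under quantile normalization (0.39, limma adjusted p = 0.027) and by limma-voom (0.48, adjusted p = 0.012). IRF1, a factor induced chiefly by interferon gamma, showed -0.23 ± 0.24 and 0.53 ± 0.24 (limma adjusted p = 0.39 and 0.071), the latter called by limma-voom (0.65, adjusted p = 0.02). An antisense gene, IRF1-AS1, shares exon bases with IRF1, and the strand setting of the counting is not stated.

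Among ISG15 and the genes grouped with it here (USP18, HERC5 and HERC6), HERC6 was higher with selumetinib in both fractions and ISG15 in CCNB1-positive cells. HERC6, a HECT-type ubiquitin ligase family member (chr4:88378739-88443111, plus strand), stood at 0.861 and 0.632 RPM in untreated CCNB1-negative and 8.14 and 4.68 RPM in selumetinib CCNB1-negative cells, and at 1.76 and 0.870 RPM in untreated CCNB1-positive and 11.5 and 6.19 RPM in selumetinib CCNB1-positive cells. All 4 selumetinib libraries lay above all 4 untreated ones, by 3.06 ± 0.43 (8.36-fold) and 2.77 ± 0.43 (6.83-fold). HERC6 passed the limit through these selumetinib libraries, so its values are given without a test. ISG15, which is conjugated to other proteins, differed by -0.03 ± 0.15 in CCNB1-negative cells (limma adjusted p = 0.86, 95% interval -0.35 to 0.29) and rose by 0.72 ± 0.15 in CCNB1-positive cells (adjusted p = 8.3e-04). USP18, the protease that removes ISG15 and restrains the receptor, was read at 0.824 to 2.30 RPM and passed the test in neither fraction (-0.25 ± 0.44 and 0.64 ± 0.44, limma adjusted p = 0.63 and 0.22). Under quantile normalization USP18 was called lower in CCNB1-negative cells (-1.43, limma adjusted p = 0.0063). HERC5, the main human ISG15 ligase, had 0 to 9 reads per library.

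Of the 4 RNA sensing genes tested among the members, 2 fell in CCNB1-negative cells and 0 were called in CCNB1-positive cells. Among all genes tested, 35.8% fell in CCNB1-negative cells, and 38% rose and 27.3% fell in CCNB1-positive cells. The RNA sensors DDX58 and DHX58, which rose in both fractions, belong to a pathway list described below. OAS3, an oligoadenylate synthetase that activates RNase L on double-stranded RNA (chr12:112938444-112973251, plus strand), stood at 17.8 and 17.2 RPM in untreated CCNB1-negative and 8.01 and 5.39 RPM in selumetinib CCNB1-negative cells, and at 16.3 and 16.5 RPM in untreated CCNB1-positive and 22 and 18.4 RPM in selumetinib CCNB1-positive cells. The selumetinib CCNB1-negative libraries lay below the other 6, and the fall of 1.41 ± 0.21 there (limma adjusted p = 2.8e-05) stood beside 0.29 ± 0.21 in CCNB1-positive cells (adjusted p = 0.23). OASL, the oligoadenylate synthetase-like protein that binds RNA sensors, stood at 4.44 and 3.37 RPM in untreated CCNB1-negative and 2.03 and 1.98 RPM in selumetinib CCNB1-negative cells, and at 5.56 and 6.37 RPM against 7.67 and 4.21 RPM in CCNB1-positive cells. It fell by 0.95 ± 0.31 in CCNB1-negative cells (limma adjusted p = 0.013), and in CCNB1-positive cells the treated libraries lay on either side of the untreated ones (-0.07 ± 0.31, adjusted p = 0.86). The call in CCNB1-negative cells was lost with limma-voom on the recovered reads (-0.80, adjusted p = 0.065) and without untreated CCNB1-negative replicate 1 (-0.75). Quantile normalization called OASL lower in CCNB1-positive cells too (-0.87, limma adjusted p = 0.03). IFIH1, the double-stranded RNA sensor MDA5, and EIF2AK2, the RNA-activated kinase PKR, passed the test in neither fraction, with IFIH1 at -0.36 ± 0.28 and 0.58 ± 0.28 and EIF2AK2 at 0.16 ± 0.16 and 0.37 ± 0.16 (limma adjusted p = 0.055 to 0.36 for the 2 genes). Quantile normalization called IFIH1 lower in CCNB1-negative cells (-1.08, limma adjusted p = 0.0034). In CCNB1-positive cells limma-voom called IFIH1 (0.70, adjusted p = 0.028) and EIF2AK2 (0.47, adjusted p = 0.018) higher.

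The IFIT genes, whose proteins bind foreign RNA ends and stop translation, lie within chr10:89283694-89420997, and in CCNB1-negative cells they were called in both directions. IFIT3 stood at 1.68 and 2.37 RPM in untreated CCNB1-negative and 4.53 and 3.47 RPM in selumetinib CCNB1-negative cells, and at 1.63 and 2.06 RPM against 12.6 and 8.30 RPM in CCNB1-positive cells. It rose by 2.48 ± 0.32 in CCNB1-positive cells (limma adjusted p = 1.7e-05) and by 0.99 ± 0.32 in CCNB1-negative cells (adjusted p = 0.012), where quantile normalization turned the sign (-0.02, adjusted p = 0.97) and the call was lost without untreated replicate 1 (0.74) or selumetinib replicate 1 (0.80). IFIT1 stood at 0.680 and 0.263 RPM in untreated CCNB1-negative and 1.71 and 0.567 RPM in selumetinib CCNB1-negative cells, and at 1.00 and 1.24 RPM against 5.46 and 3.03 RPM in CCNB1-positive cells. Its difference was 1.87 ± 0.59 in CCNB1-positive cells, with 0.68 under quantile normalization and 1.44 without selumetinib CCNB1-positive replicate 1. The 1.22 ± 0.59 in CCNB1-negative cells rested on as few as 5 reads in a library. IFIT1 passed the limit through its selumetinib libraries, so these values are given without a test. IFIT5 stood at 4.12 and 3.58 RPM in untreated CCNB1-negative and 1.77 and 0.638 RPM in selumetinib CCNB1-negative cells, and at 1.76 and 2.93 RPM against 3.58 and 1.71 RPM in CCNB1-positive cells. It fell by 1.85 ± 0.49 in CCNB1-negative cells (limma adjusted p = 0.0036), a call lost without selumetinib CCNB1-negative replicate 2 (-1.12, adjusted p = 0.062), and the CCNB1-positive libraries overlapped (0.13 ± 0.49, adjusted p = 0.83). The 4 IFIT genes shared no 50-base word of their transcripts. LIPA, on the other strand, shares exon bases with IFIT3 and IFIT2.

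Of the genes that act at membranes, BST2 fell by 0.74 ± 0.20 in CCNB1-negative cells (limma adjusted p = 0.0042) from 52.6 and 51.8 RPM to 40.3 and 24.3 RPM, and differed by 0.07 ± 0.20 in CCNB1-positive cells (adjusted p = 0.78). Without selumetinib CCNB1-negative replicate 2 the call for BST2 was lost (-0.37, adjusted p = 0.055). IFITM3, which blocks the fusion of entering viruses, stood at 2.54 and 2.90 RPM in untreated CCNB1-negative and 4.66 and 2.98 RPM in selumetinib CCNB1-negative cells, and at 2.93 and 2.29 RPM against 7.43 and 3.89 RPM in CCNB1-positive cells. Every selumetinib library lay above the untreated ones of its fraction, but only the difference in CCNB1-positive cells passed the test (1.05 ± 0.35, limma adjusted p = 0.017), and it was 0.02 under quantile normalization (adjusted p = 0.96) and lost its call without untreated CCNB1-positive replicate 2 (0.88) or selumetinib CCNB1-positive replicate 1 (0.59). IFITM2, its neighbour, differed by -0.22 ± 0.25 and 0.12 ± 0.25 (limma adjusted p = 0.43 and 0.69) and was called lower in both fractions under quantile normalization (-0.68 and -0.58). The IFITM genes share 8.49% to 15.7% of their 50-base words, so some reads may match more than 1 of them. How far this affects the counts of IFITM2 and IFITM3 was not measured.

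Among the other antiviral effectors, ISG20, an exonuclease that degrades single-stranded RNA (chr15:88636153-88656483, plus strand), stood at 4.03 and 3.53 RPM in untreated CCNB1-negative and 12.9 and 13.7 RPM in selumetinib CCNB1-negative cells, and at 2.30 and 2.70 RPM against 16.6 and 8.23 RPM in CCNB1-positive cells. It rose by 1.81 ± 0.29 (limma adjusted p = 7.4e-05) and 2.23 ± 0.29 (adjusted p = 2.2e-05), with no overlap of treated and untreated libraries. MX1, a dynamin-like GTPase that traps viral nucleocapsids (chr21:41420304-41459214, plus strand), stood at 0.952 and 0.790 RPM in untreated CCNB1-negative and 3.81 and 2.06 RPM in selumetinib CCNB1-negative cells, and at 1.51 and 0.870 RPM against 5.32 and 4.15 RPM in CCNB1-positive cells. The libraries again did not overlap (1.69 ± 0.41 and 2.04 ± 0.41), but quantile normalization left 0.57 and 0.85, and MX1 shares exon bases with TMPRSS2 on the other strand. MX1 passed the limit through its selumetinib libraries, so its values are given without a test. SAMD9, which restricts poxviruses (chr7:93099513-93118023, minus strand), stood at 8.38 and 9.64 RPM in untreated CCNB1-negative and 6.30 and 3.69 RPM in selumetinib CCNB1-negative cells, and at 7.65 and 8.84 RPM against 13.4 and 7.64 RPM in CCNB1-positive cells. It fell in CCNB1-negative cells by 0.90 ± 0.30 (limma adjusted p = 0.014), a call lost without untreated CCNB1-negative replicate 2 (-0.80) or selumetinib CCNB1-negative replicate 2 (-0.51), and in CCNB1-positive cells the treated libraries lay at or beyond the ends of the untreated range (0.30 ± 0.30, adjusted p = 0.39). TRIM21, the cytosolic antibody receptor, passed the test in neither fraction (-0.40 ± 0.25 and 0.08 ± 0.25, limma adjusted p = 0.16 and 0.78). Quantile normalization called TRIM21 lower in CCNB1-negative cells (-0.68, limma adjusted p = 0.036).

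The ADP-ribosylation genes lie together on chromosome 3. PARP14, a mono-ADP-ribosyltransferase (chr3:122680839-122730840, plus strand), stood at 42.4 and 32.9 RPM in untreated CCNB1-negative and 75.3 and 67.6 RPM in selumetinib CCNB1-negative cells, and at 32.8 and 29.5 RPM against 82.5 and 69.3 RPM in CCNB1-positive cells. It rose by 0.93 ± 0.17 (limma adjusted p = 1.6e-04) and 1.28 ± 0.17 (adjusted p = 1.8e-05), and no alternative run here removed either call. PARP9 and its partner DTX3L, an E3 ligase, are transcribed head to head and share exon bases on opposite strands. PARP9 rose in CCNB1-positive cells by 0.75 ± 0.19 (limma adjusted p = 0.0034) with 0.12 ± 0.19 in CCNB1-negative cells (adjusted p = 0.58), while DTX3L fell in CCNB1-negative cells by 0.88 ± 0.20 (adjusted p = 0.0011) with -0.02 ± 0.20 in CCNB1-positive cells (adjusted p = 0.93).

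The remaining induced genes all rose in CCNB1-positive cells. IFI6, a small mitochondrial and ER membrane protein (chr1:27666064-27672198, minus strand), stood at 1.72 and 1.16 RPM in untreated CCNB1-negative and 7.15 and 4.32 RPM in selumetinib CCNB1-negative cells, and at 1.46 and 1.28 RPM against 11.0 and 5.80 RPM in CCNB1-positive cells. The libraries did not overlap (1.98 ± 0.37 and 2.54 ± 0.37, limma adjusted p = 2.7e-04 and 5.3e-05). IFI27, another small membrane protein, stood at 5.71 and 2.53 RPM in untreated CCNB1-negative and 10.8 and 6.81 RPM in selumetinib CCNB1-negative cells, and at 4.68 and 3.57 RPM against 25.1 and 7.97 RPM in CCNB1-positive cells. It rose by 1.17 ± 0.46 (limma adjusted p = 0.034) and 1.79 ± 0.46 (adjusted p = 0.004), and both calls were lost under quantile normalization (0.56 and 1.08, adjusted p = 0.32 and 0.076). The first was also lost without untreated CCNB1-negative replicate 2 (0.58) or selumetinib CCNB1-negative replicate 1 (0.84), and the second without selumetinib CCNB1-positive replicate 1 (0.96). IFI35, an NMI-binding leucine zipper protein, stood at 9.97 and 9.11 RPM in untreated CCNB1-negative and at 13.5 RPM in each selumetinib CCNB1-negative library, and at 7.94 and 7.15 RPM against 21.5 and 14.8 RPM in CCNB1-positive cells. It rose by 1.24 ± 0.21 in CCNB1-positive cells (limma adjusted p = 1.6e-04), whereas its 0.50 ± 0.21 in CCNB1-negative cells (adjusted p = 0.044) lost its call in 8 of 16 alternatives, among them leaving out any library of that comparison. IFI44 stood at 2.36 and 1.11 RPM in untreated CCNB1-negative and 4.20 and 1.63 RPM in selumetinib CCNB1-negative cells, which overlapped (0.70 ± 0.47, limma adjusted p = 0.19), and at 2.76 and 2.24 RPM against 8.28 and 4.61 RPM in CCNB1-positive cells, where it rose by 1.31 ± 0.47 (adjusted p = 0.025). That call was lost under quantile normalization (0.29, adjusted p = 0.62) and without untreated CCNB1-positive replicate 2 (1.16) or selumetinib CCNB1-positive replicate 1 (0.89).

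The selumetinib replicates differed over these genes as a group. In 25 of 28 genes selumetinib CCNB1-negative replicate 1 stood above replicate 2, by a median of 0.53 on the log2 scale, and in 26 of 28 genes selumetinib CCNB1-positive replicate 1 stood above replicate 2, by 0.50, while over all genes tested the medians were 0.06 and 0.02. In untreated cells replicate 1 stood above replicate 2 in 21 of 28 genes (CCNB1-negative, median 0.21) and 18 of 28 (CCNB1-positive, median 0.13). Over all genes tested, 54.3% and 59.9% stood higher in replicate 1 of these untreated groups (medians 0.03 and 0.06). The shares were 56.5% in selumetinib CCNB1-negative and 53.2% in selumetinib CCNB1-positive cells. Without selumetinib CCNB1-negative replicate 1 the CCNB1-negative comparison called 6 genes higher and 7 lower, and without replicate 2 it called 11 higher and 3 lower. Without selumetinib CCNB1-positive replicate 1 the CCNB1-positive comparison called 12 genes higher.

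By promoter, the 18 tested genes with an ISRE core gave 6 higher and 5 lower calls in CCNB1-negative and 10 higher and 0 lower calls in CCNB1-positive cells, with medians of 0.31 and 0.88. The 6 tested genes whose window held no core, STAT2, IRF9, IRF1, HERC6, PARP9 and IFI35, gave 4 higher and 0 lower calls and 5 higher and 0 lower calls, with medians of 0.62 and 1.10. Genes with and without the letters were thus found among those that rose. Among all genes tested, 38.2% rose and 35.8% fell in CCNB1-negative cells, and 38% rose and 27.3% fell in CCNB1-positive cells. The counts by promoter include HERC6, IFIT1 and MX1, which passed the limit through their selumetinib libraries, and were not tested against all genes.

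Between the fractions of untreated cells none of the 28 genes differed past the threshold by limma (3 had an unadjusted p under 0.05), and none did by limma-voom on the recovered reads. With a block by replicate number within each treatment, STAT2 (-0.40) and PARP9 (-0.41) were called lower in CCNB1-positive cells. In the main fit, without that block, 1.36% of all genes tested had a higher and 1.51% a lower level in the CCNB1-positive fraction. The widest intervals of the difference belonged to IFIT1 (1.40, 95% interval 0.12 to 2.67) and IFIT5 (-0.76, -1.81 to 0.29), so that differences of that size cannot be set aside for these genes. For STAT2 the interval ran from -0.74 to -0.05 and for OAS3 from -0.54 to 0.35.

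Under selumetinib the CCNB1-positive fraction exceeded the CCNB1-negative one in 7 of the 28 genes and lay below it in 0, beside 13.8% and 7.87% of all genes, and the median difference was 0.52 beside 0.02 over all genes. They were IFIT1 (2.05 ± 0.59), OAS3 (1.61 ± 0.21, limma adjusted p = 8.5e-05), OASL (1.5 ± 0.31, 0.0043), IFIT3 (1.36 ± 0.32, 0.0086), SAMD9 (1.07 ± 0.30, 0.021), BST2 (0.85 ± 0.20, 0.0092) and ISG15 (0.46 ± 0.15, 0.041). IFIT1 passed the limit through its selumetinib libraries and is given without a test, and without HERC6, IFIT1 and MX1 the count was 6 of 25 genes. In each of the 7 genes both selumetinib CCNB1-positive libraries lay above both selumetinib CCNB1-negative ones. This comparison uses the same selumetinib CCNB1-negative libraries as the falls described above, so the calls of OAS3, OASL, SAMD9 and BST2 in it are no separate evidence of those falls. The count rested on single libraries: 1 gene was called without selumetinib CCNB1-positive replicate 1, 2 without selumetinib CCNB1-negative replicate 2 and 12 without selumetinib CCNB1-negative replicate 1. ISG15 lost its call in 13 of 17 alternatives. With the replicate block within each treatment, 15 genes were called, and the share of all genes called with that block is not given here. OAS3 was the only gene of the 28 called in this comparison under all alternatives.

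**Figure D3:**
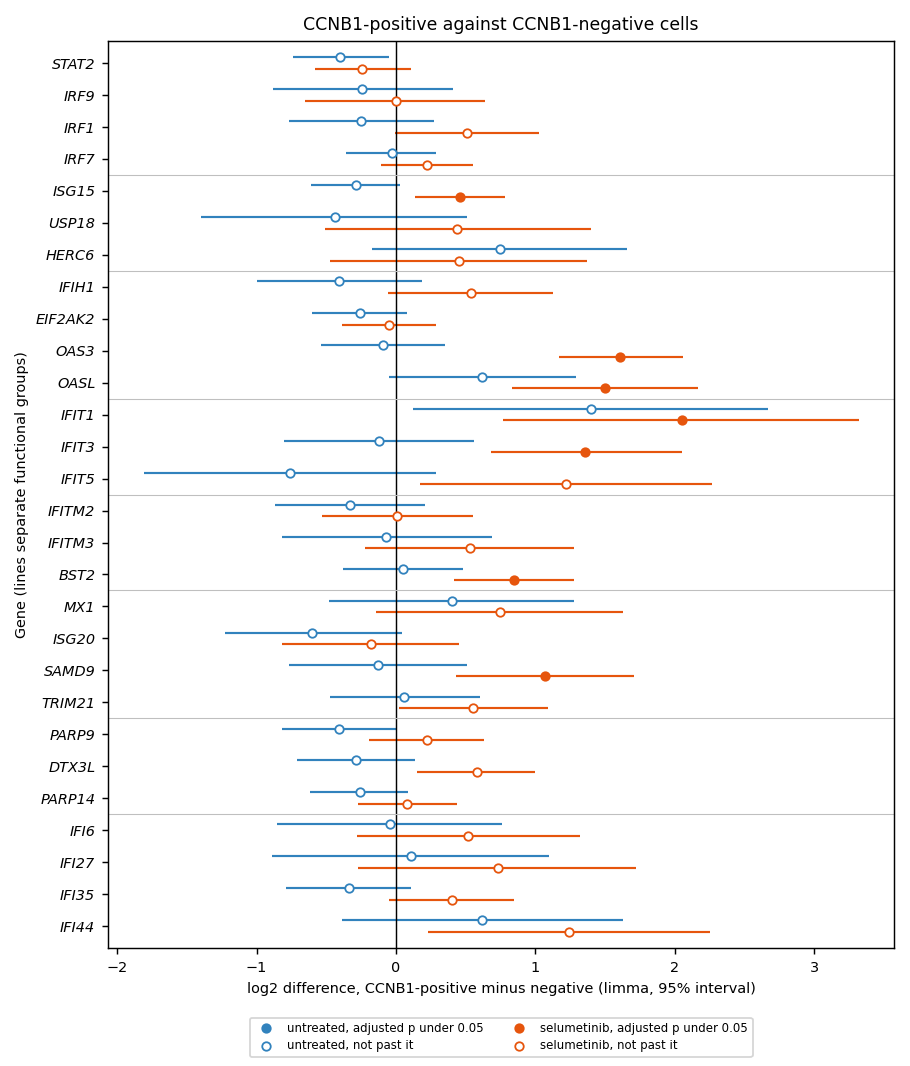
Log2 difference of CCNB1-positive minus CCNB1-negative cells for the 28 genes, untreated and under selumetinib, with limma's 95% interval and filled points for an adjusted p under 0.05. No untreated difference is filled, and the 7 filled selumetinib differences run from 0.46 (ISG15) to 2.05 (IFIT1). IFIT1 passed the limit through its selumetinib libraries, and the largest of the others is OAS3 (1.61).

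The responses of the fractions were compared directly as the selumetinib difference in CCNB1-positive minus that in CCNB1-negative cells. OAS3 passed the test (1.71 ± 0.29, limma adjusted p = 0.0022), as did 4.99% of all genes in this direction and 0.345% in the other. It kept this call in all 16 alternatives, between 1.42 and 1.99. The other 27 genes missed the threshold in this fit: IFIT5 had 1.98 ± 0.69 (adjusted p = 0.13), IFIT3 1.48 ± 0.45 (0.077), SAMD9 1.2 ± 0.42 (0.13), BST2 0.80 ± 0.28 (0.13), DTX3L 0.86 ± 0.28 (0.1), OASL 0.88 ± 0.44 (0.28) and ISG15 0.75 ± 0.21 (0.057). With a block by replicate number within each treatment, 11 of the 28 genes passed, among them ISG15, IFIT3, IFIT5, SAMD9, BST2 and DTX3L, so these calls depend on whether same-numbered fractions are taken as pairs, which the labels do not state. The share of all genes that passed with this block is not given here, so the rise in calls cannot be read as particular to these genes. Over the 28 genes the differences ran from -0.29 (HERC6) to 1.98, with a median of 0.62 beside 0.11 over all genes. STAT2 gave 0.16 ± 0.23 with a 95% interval of -0.33 to 0.65, and PARP14 0.35 ± 0.23 with -0.15 to 0.85.

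**Figure D4:**
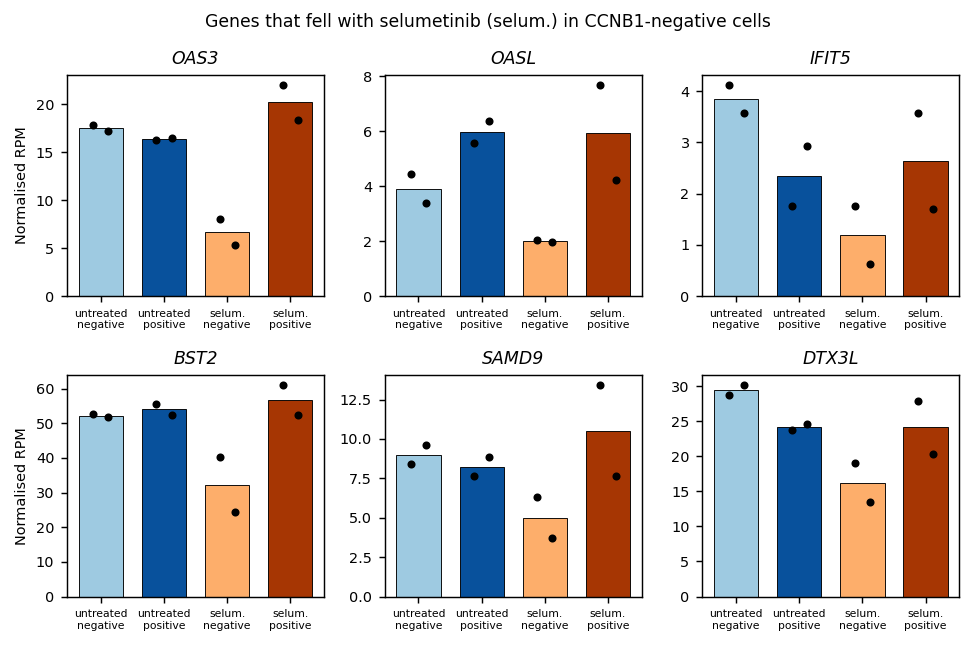
Normalised RPM of the 6 genes called lower with selumetinib in CCNB1-negative cells, where bars are means of 2 libraries and points are the libraries. The selumetinib CCNB1-negative bars are the shortest in all 6 panels, and for OAS3 its points (8.01 and 5.39 RPM) lie far below the 16.3 to 22 RPM of the other groups.

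The 13 genes under the limit were read too rarely for the main test. Between 2 and 7 reads per group were counted for RSAD2, an enzyme that makes a chain-terminating nucleotide, and its neighbour CMPK2 had 3 to 12 reads per group. Over both libraries of a group, XAF1, a pro-apoptotic factor, had 0 reads in untreated CCNB1-negative and 10 in selumetinib CCNB1-negative cells, which is at least 4.66-fold higher against a floor of 3 reads per group, and 1 and 20 reads in CCNB1-positive cells. SAMD9L had 0 and 10 reads in untreated and selumetinib CCNB1-positive cells, at least 4.18-fold higher. IFI44L had 2 and 17 reads in CCNB1-negative and 1 and 29 in CCNB1-positive cells, and EPSTI1 had 4 and 32 and 9 and 50. IFIT2 had 19 and 30 reads in CCNB1-negative and 36 and 121 in CCNB1-positive cells, DDX60 had 16 and 31 and 33 and 126, MX2 had 8 and 27 and 6 and 56, and OAS2 had 5 and 10 and 4 and 40. TRIM22 had 2 and 16 and 3 and 14 reads, HERC5 3 and 3 and 14 and 10, and IFITM1 14 and 4 and 5 and 15. No test is given for these genes, since the value assigned to an unread gene was higher in 3 of the 4 selumetinib libraries than in any untreated one. These floors and counts cover counting error only, since reads without molecular identifiers are not independent molecules.

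The genes upstream of this programme were read from lists by role, and their counts stand beside the shares of all genes called, 38.2% higher and 35.8% lower in CCNB1-negative and 38% and 27.3% in CCNB1-positive cells. Of 11 interferon genes 10 were at 0 or 1 read over all libraries, among them IFNB1, IFNG, IFNL1 and IFNA2. IFNE, the epithelial type I interferon, was the exception: it stood at 5.30 and 4.42 RPM in untreated CCNB1-negative and 15.9 and 11.6 RPM in selumetinib CCNB1-negative cells, and at 3.55 and 4.17 RPM against 13.1 and 10.7 RPM in CCNB1-positive cells. It rose by 1.49 ± 0.24 and 1.62 ± 0.24 (limma adjusted p = 6.2e-05 and 5.0e-05), with no overlap between treated and untreated libraries. Of 6 receptor genes 3 rose and 1 fell in each fraction. The subunits of the interferon lambda receptor rose together, IFNLR1 by 1.41 ± 0.25 and 1.63 ± 0.25 (limma adjusted p = 1.9e-04 and 8.8e-05) and IL10RB by 1.41 ± 0.18 and 1.40 ± 0.18 (adjusted p = 7.8e-06 and 1.6e-05), while IFNGR1, which binds interferon gamma, fell by 1.46 ± 0.18 and 0.52 ± 0.18 (adjusted p = 5.0e-06 and 0.018).

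Among the receptor-bound kinases JAK2 rose by 1.03 ± 0.23 and 1.09 ± 0.23 (limma adjusted p = 0.001 and 9.6e-04), with 0.29 and no call in CCNB1-positive cells under quantile normalization, and JAK1 rose in CCNB1-positive cells by 0.53 ± 0.18 (adjusted p = 0.017). Of 7 feedback and IRF repressor genes, 5 passed the limit, and 4 rose and 1 fell in CCNB1-negative cells, against 1 higher and 0 lower in CCNB1-positive cells. PIAS1, a SUMO ligase that restrains STAT signalling, rose by 1.71 ± 0.15 and 1.48 ± 0.15 (limma adjusted p = 2.7e-07 and 2.7e-06), and IRF2BP1 fell in CCNB1-negative cells by 0.69 ± 0.23 (adjusted p = 0.014).

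Of 19 nucleic acid sensors and adaptors, 15 passed the limit, and 6 rose and 4 fell in CCNB1-negative cells, with 5 higher and 4 lower in CCNB1-positive cells. DHX58, the RNA sensor LGP2 and itself inducible by interferon, stood at 1.18 and 0.948 RPM in untreated CCNB1-negative and 6.17 and 4.75 RPM in selumetinib CCNB1-negative cells, and at 0.920 and 1.19 RPM against 6.96 and 5.27 RPM in CCNB1-positive cells. It rose by 2.36 ± 0.33 and 2.53 ± 0.33 (limma adjusted p = 2.0e-05 in each), and its treated and untreated libraries did not overlap. IRAK1, a kinase of Toll-like receptor signalling, fell by 2.27 ± 0.19 and 1.65 ± 0.19 (limma adjusted p = 1.3e-07 and 5.9e-06). DDX58, the RNA sensor RIG-I, and CGAS, the DNA sensor, were picked out after their values were seen: DDX58 rose by 1.73 ± 0.18 and 1.45 ± 0.18, and CGAS fell by 2.0 ± 0.19 and 0.93 ± 0.19 (limma adjusted p = 9.8e-07, 1.1e-05, 6.1e-07 and 8.8e-04).

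**Figure D5:**
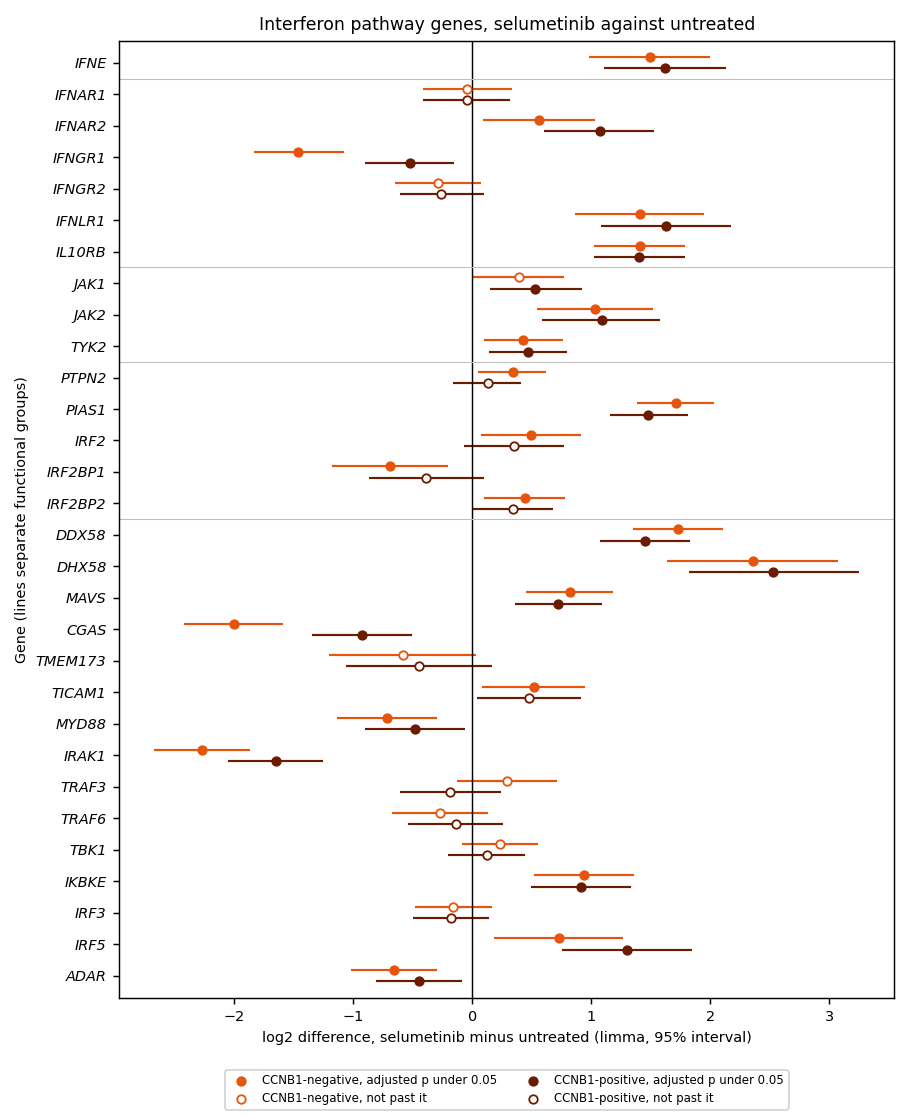
Log2 difference of selumetinib minus untreated for the pathway genes that passed the limit (interferon, receptors, kinases, feedback genes, sensors and adaptors), with limma's 95% interval and filled points for an adjusted p under 0.05. IFNE, IFNLR1, IL10RB, PIAS1, DDX58 and DHX58 lie right of 1 in both fractions, and IRAK1 (-2.27 and -1.65) lies farthest left in both.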

How the data were processed

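mRNA-seq values of 8 HT29 libraries in 4 groups of 2 were analysed. The deposited values are log2 gene-level read totals that the authors made in SeqMonk, scaled to the largest library. Upstream, per the submitters' processing notes, stood Trim Galore (0.5.0), HISAT2 (2.1.0) and GRCh38. Genes without reads carry the log2 of 0.9 reads plus a library-specific constant. Which annotation release was used, and whether counting used strand, is not given in the sources used here. From the steps of the log2 values whole reads were recovered (tolerance 0.01) for all genes that had any. RPM values are the deposited values on a linear scale, relative to the 23916160 reads on genes of the largest library. Levels per kilobase use exon lengths of GENCODE release 44. The labels and the study's methods name different growth media.

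The log2 values were fitted with limma 3.58.1 (R 4.3.3, trend) with a coefficient for each of the 4 groups, for genes averaging at least 1 RPM, with Benjamini-Hochberg adjustment over all 14219 genes. The test was checked on simulated data. The planned design allowed for counts, and its log2 part was used. Alternatives were no limit on low values, a limit of 10 RPM, a pseudocount of 0.1 RPM, quantile normalization, blocks by replicate number, an adjusted p under 0.01, the compared groups alone, limma-voom on the recovered reads and leaving out each library. Replicates were not duplicates (chi-square of 17.3 to 33.5 per gene). The labels do not say whether the HT29 replicates were separate cultures, and where they were not p-values measure the spread between these libraries.

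Genes were named as all 42 members by role, with values in every library for those called at 2-fold or more, and from each pathway list the 2 called genes with the largest difference in each fraction. The members and lists were chosen with earlier results of these data known. Promoters are from RefSeq. Some genes of the pathway and marker lists are not reported here.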

Additional observations from a re-analysis of the deposited data

Results flagged for a closer look

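The genes OAS3, IFNGR1 and CGAS of the interferon programme and its pathway lists responded to selumetinib to a different degree in the fractions by the test of the difference itself (limma, adjusted over all 14219 genes). OAS3 differed by 1.71 ± 0.29 (log2, CCNB1-positive minus CCNB1-negative response, adjusted p = 0.0022), with the values per library given above.

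IFNGR1, the interferon gamma receptor, differed by 0.93 ± 0.25 (limma adjusted p = 0.046). It stood at 85.5 and 103 RPM in untreated CCNB1-negative and 39.4 and 29.6 RPM in selumetinib CCNB1-negative cells, and at 74.9 and 85.1 RPM against 61.6 and 50 RPM in CCNB1-positive cells.

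CGAS, the cytosolic DNA sensor, differed by 1.07 ± 0.27 (limma adjusted p = 0.036). It stood at 29.3 and 30.5 RPM in untreated CCNB1-negative and 6.23 and 8.93 RPM in selumetinib CCNB1-negative cells, and at 29.6 and 29.9 RPM against 14.3 and 17.1 RPM in CCNB1-positive cells, so that the gene was lower with the drug in both fractions and less so in CCNB1-positive cells.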

How the results depend on the processing

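Counts are of the 28 genes unless a limit changes the number tested. Shares of all genes called are given for the main fit only. In CCNB1-negative cells 16 calls became 6 of 12 genes at 10 RPM, 10 at an adjusted p under 0.01 and 12 to 16 when 1 library was left out. In CCNB1-positive cells 16 calls became 6 of 12 at 10 RPM, where fewer genes are tested, and 12 to 18 when 1 library was left out, and the median fell from 0.73 to 0.36 under quantile normalization. Quantile normalization turned IFIT3 in CCNB1-negative cells to -0.02 and IFITM2 in CCNB1-positive cells to -0.58, and the cause was not tested. Between fractions under selumetinib 7 calls became 4 at 10 RPM, 4 at an adjusted p under 0.01 and 1 to 12 when 1 library was left out. The test of the difference between responses gave 1 call, 2 at 10 RPM and 1 to 7 when 1 library was left out, with 7 without selumetinib CCNB1-negative replicate 1.

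The labels do not say what a replicate number marks. Deviations of same-numbered libraries correlated between fractions (0.35 untreated, 0.43 with selumetinib) but not between treatments (-0.09 to 0.08). With a replicate block over all libraries the difference between responses gave 2 calls and no other count moved by over 1.5 times. With the block set within each treatment, 2 genes were called lower in untreated CCNB1-positive cells, 15 higher in selumetinib CCNB1-positive cells and 11 in the difference between responses.

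Calls kept under all alternatives that tested the gene were 7 in CCNB1-negative cells (STAT2, HERC6, OAS3, ISG20, DTX3L, PARP14 and IFI6) and 10 in CCNB1-positive cells (STAT2, IRF7, ISG15, HERC6, IFIT3, ISG20, PARP9, PARP14, IFI6 and IFI35). HERC6, ISG20, IFI6 and IFIT3 lay below the 10 RPM limit and were not tested there, and HERC6 passed the main limit through its selumetinib libraries. Depth limited the lowest genes most: 3 reads over a group correspond to 0.0656 to 0.102 RPM.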
